A study of Homo sapiens with 2 samples.

Results

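The antisense genes are those whose symbol ends in -AS or -AS with a number, and each was set beside the sense gene named before that ending. The rule found 309 antisense genes among the 18781 genes in the table, under 307 symbols, since CEBPA-AS1 and DHRS4-AS1 were each given to 2 gene identifiers. A sense partner was in the table for 282 of them, which gave 282 pairs with 273 distinct sense genes. The other 27 had no partner, among them 6 named for a whole HOX cluster.

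The libraries came from wild-type T47D cells, an established luminal breast cancer line grown in DMEM with serum. Lysate was incubated for 4 h, per the labels, in RNasin at 200 U/mL with protein A beads carrying an antibody against IMP1, an RNA-binding protein also known as IGF2BP1, or normal IgG, and the RNA that came down was sequenced. The comparison asks which RNAs were recovered with IMP1 beyond the IgG background. There was 1 library per condition, so no value below has a replicate check, no p-value is given, and every count is a description of these 2 libraries.

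Long noncoding antisense RNAs are transcribed from the strand opposite a neighbouring gene, usually protein-coding. Some start close to the sense gene's promoter and run away from it, and others overlap its body. They are usually made at lower levels than their partners, and several act on the partner's chromatin, on its mRNA or on microRNAs. The name alone did not settle the class. Of the 290 members with a RefSeq class, 278 were lncRNA, 3 antisense RNA, 3 transcribed pseudogenes and 6 protein-coding: MMP24-AS1, FAM83H-AS1, CEBPZ-AS1, RPA3-AS1, TOPORS-AS1 and NCBP2-AS2. These 6 are antisense genes by symbol and not noncoding RNAs. Another member, FAM211A-AS1, is now named SNHG29, a snoRNA host gene.

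Both genes of a pair lay close together by construction of the names. In 238 pairs they carried the same locus string, a merged stretch (hg19) of 2475 to 836140 bp that held 2 to 9 genes. In the other 44 pairs the loci adjoined, with a gap of 0 to 1375 bp and a median of 122 bp. Whether the libraries kept strand is not stated in the sources used here, so in overlapping pairs the reads of the antisense gene and of its partner cannot be told apart with certainty.

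RefSeq start sites (GRCh38.p14) could be matched for both genes of 188 pairs, and all 188 were on opposite strands. DHRS4-AS1 enters these 188 pairs, and the 118 close pairs below, under both of its gene identifiers with the same start. The closest starts were within 1 kb in 118 pairs. In 81 of these the antisense gene began upstream of the sense gene and ran away from it, a head-to-head arrangement, and in 37 it began downstream of the sense start, so that the 5′ ends overlapped. At adjoining loci 32 of 33 pairs had starts within 1 kb. The windows of 250 bases before to 50 bases after the antisense start follow for 4 head-to-head pairs that the results turn on. They run 5′ to 3′ on the antisense strand, and capitals mark the stretch between both start sites.

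GATA3-AS1: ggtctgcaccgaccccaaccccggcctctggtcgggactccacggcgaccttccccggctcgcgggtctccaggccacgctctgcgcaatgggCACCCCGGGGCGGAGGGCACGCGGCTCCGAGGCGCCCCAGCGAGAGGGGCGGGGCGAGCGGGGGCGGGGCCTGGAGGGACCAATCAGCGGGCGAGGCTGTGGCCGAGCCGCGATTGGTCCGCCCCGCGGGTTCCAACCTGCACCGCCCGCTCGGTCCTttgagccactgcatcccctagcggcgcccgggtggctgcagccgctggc
GAS6-AS2: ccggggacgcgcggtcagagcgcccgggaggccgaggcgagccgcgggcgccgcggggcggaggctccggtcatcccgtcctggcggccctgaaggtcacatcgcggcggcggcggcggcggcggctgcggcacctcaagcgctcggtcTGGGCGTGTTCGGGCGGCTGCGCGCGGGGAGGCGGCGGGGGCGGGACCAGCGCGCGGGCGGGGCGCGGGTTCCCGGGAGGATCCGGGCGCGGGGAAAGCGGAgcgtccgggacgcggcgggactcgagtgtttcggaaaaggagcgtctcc
KTN1-AS1: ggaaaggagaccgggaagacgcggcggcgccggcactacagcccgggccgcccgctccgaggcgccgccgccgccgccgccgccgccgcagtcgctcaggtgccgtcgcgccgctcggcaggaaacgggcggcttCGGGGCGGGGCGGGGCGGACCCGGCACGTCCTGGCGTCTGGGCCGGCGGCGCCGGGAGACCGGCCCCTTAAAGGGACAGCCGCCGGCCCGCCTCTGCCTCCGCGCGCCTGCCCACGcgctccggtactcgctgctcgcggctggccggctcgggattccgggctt
ZEB1-AS1: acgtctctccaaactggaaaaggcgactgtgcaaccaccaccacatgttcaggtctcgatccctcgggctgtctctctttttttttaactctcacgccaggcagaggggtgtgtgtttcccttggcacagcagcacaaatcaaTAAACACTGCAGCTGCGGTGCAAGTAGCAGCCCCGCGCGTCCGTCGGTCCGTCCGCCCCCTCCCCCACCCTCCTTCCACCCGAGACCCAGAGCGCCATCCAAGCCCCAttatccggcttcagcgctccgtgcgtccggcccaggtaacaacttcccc

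The GATA3-AS1 window is chr10:8053435-8053734 on the minus strand, and the antisense start is 157 bp upstream of that of GATA3. The GAS6-AS2 window is chr13:113863927-113864226 on the plus strand, with the starts 101 bp apart. The KTN1-AS1 window is chr14:55580043-55580342 on the minus strand, 115 bp between starts, and the ZEB1-AS1 window chr10:31320398-31320697 on the minus strand, 107 bp between starts. The last 50 bases of each belong to the antisense transcript and the rest to the region before it. GATA3-AS1 and GAS6-AS2 were listed at 0 with IgG and had adjoining loci with their partners. KTN1-AS1 was among the pairs that differed most where both genes were above 0 in both libraries, and ZEB1-AS1 was lower with IMP1 together with its partner.

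**Figure D1:**
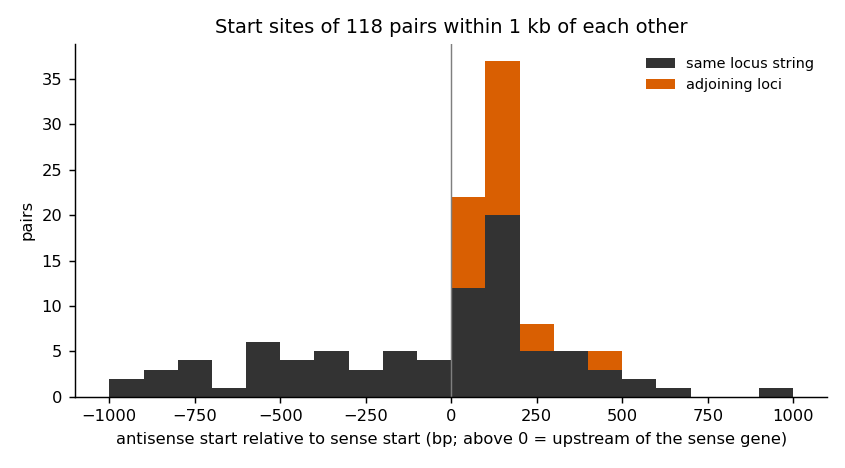
Distance from the sense start to the antisense start in bp (x axis, above 0 upstream of the sense gene) against the number of pairs (y axis) for the 118 pairs within 1 kb, stacked by whether both genes carry the same locus string. Most pairs lie just above 0: the antisense gene is upstream in 81 pairs.

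The antisense windows of the 118 close pairs held a median of 30.5 CpG dinucleotides, against 16.5 for the 70 pairs with starts over 1 kb apart and 14 for all 35116 RefSeq windows. The letters GGGCGG, searched on both strands as were the motifs below, were in 68.6% of the close windows, 45.7% of the distant ones and 45.0% of all windows. TATAAA was in 3.39%, 10.0% and 11.5%, and CCAAT in 28.8%, 41.4% and 34.6%. None of these 3 motifs contains another.

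Before the antisense values, the libraries were set against cell type markers, and the IgG library held RNAs that are not expected from an epithelial line alone. Of 17 luminal breast epithelial markers, all in the table, 11 were at least 2-fold higher with IMP1 and 0 lower, with summed levels of 2136 FPKM with IMP1 and 862 FPKM with IgG. TFF1 and TFF3 were listed at 0 with IgG. Of 15 mesenchymal markers 13 were at least 2-fold lower with IMP1 and 0 higher, with sums of 11.8 and 258 FPKM, and DCN, SPARC, PDGFRB, LUM, COL1A2 and ZEB2 were at 0 with IMP1, while FAP was at 0 with IgG. Of 10 blood markers 4 were in the table, 1 higher and 3 lower, with sums of 6.90 and 327 FPKM. CD14 was at 0 with IgG and HLA-DRA at 0 with IMP1. In libraries of precipitated RNA, fewer cells of a type, less RNA per cell and weaker recovery on the beads cannot be told apart. With only 4 of the 10 blood markers in the table, their sum does not establish RNA of blood cells. Where the RNAs of both marker lists in the IgG library came from was not tested. Nor was their part in the ratios below, each of which takes that library as its background.

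Levels are in FPKM, fragments scaled to gene length and library size, and ratios are log2((IMP1 + 0.1)/(IgG + 0.1)), which understate the change of low genes. "Higher" and "lower" mean at least 2-fold on that scale. A value of 1e-05 in the table was read as 0, and every gene in the table was above 0 in at least 1 library. Depth is unknown, because no counts or gene lengths came with the values.

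Most antisense genes were above 0 with IMP1 and listed at 0 with IgG. With IMP1 280 of the 309 were above 0, and with IgG 118. The 191 members (61.8%) above 0 with IMP1 and at 0 with IgG compare with 38.7% of all genes, and the 29 (9.39%) with the reverse pattern with 6.40%. In all, 162 antisense genes (52.4%) were higher with IMP1 against 39.9% of all genes, 76 (24.6%) were lower against 29.9%, and 71 lay between. The median log2 ratio was 1.13, against 0.40 over all genes. Of the 162 higher, 155 were at 0 with IgG, so their fold rests on the pseudocount, and with a pseudocount of 1 FPKM 39 (12.6%) were higher and 48 (15.5%) lower, both below the 17.4% and 22.4% of all genes. Rescaled so that the median gene with at least 1 FPKM in both was equal, the split was 187 higher (60.5%, all genes 49.3%) and 62 lower (20.1%, all genes 21.3%). Rescaled to the same FPKM sum it was 220 (71.2%, all genes 63.7%) and 46 (14.9%, all genes 13.0%). The larger share of higher members thus depended on the pseudocount, and the smaller share of lower members on the scale. The 115 lncRNAs with LINC symbols looked much alike: 59.1% were at 0 with IgG, 45.2% were higher and 27.8% lower, and a difference between both kinds was not tested.

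**Figure D2:**
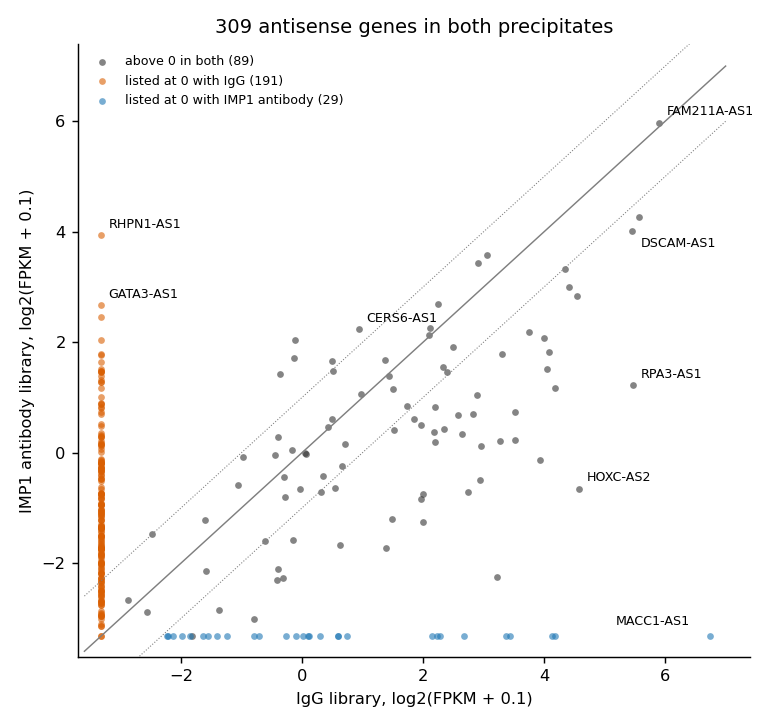
Level of each of the 309 antisense genes with IgG (x axis) and with the IMP1 antibody (y axis), both as log2(FPKM + 0.1), coloured by whether the gene was above 0 in both libraries (89), at 0 with IgG (191) or at 0 with the IMP1 antibody (29). The solid line marks equal values and the dotted lines 2-fold; the points on the left edge outnumber those on the bottom edge.

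Lowly measured genes were more often at 0 with IgG, so the members were set beside all genes of like level with IMP1. Genes of like FPKM can differ in length and so in number of fragments. No lengths came with the values, so the chance of detection was not matched. At 0.1 to 0.5 FPKM with IMP1 83.7% of antisense genes and 70.9% of all genes were at 0 with IgG. Between 1 and 3 FPKM it was 29 of 58 antisense genes (50%) and 32.9% of all genes, and at 3 to 10 FPKM 27.3% and 17.0%. LINC lncRNAs stood at 81.6% at 0.1 to 0.5 FPKM and 41.7% at 1 to 3 FPKM, the latter from 12 genes. From 10 FPKM upwards 1 of 6 antisense genes, RHPN1-AS1, and 5.37% of all genes were at 0. In the other direction, of 21 antisense genes with at least 10 FPKM with IgG 5 (23.8%) were at 0 with IMP1, against 3.09% of all genes. Of sense partners 17.6% were at 0 with IgG at 1 to 3 FPKM and 11.8% at 3 to 10 FPKM.

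**Figure D3:**
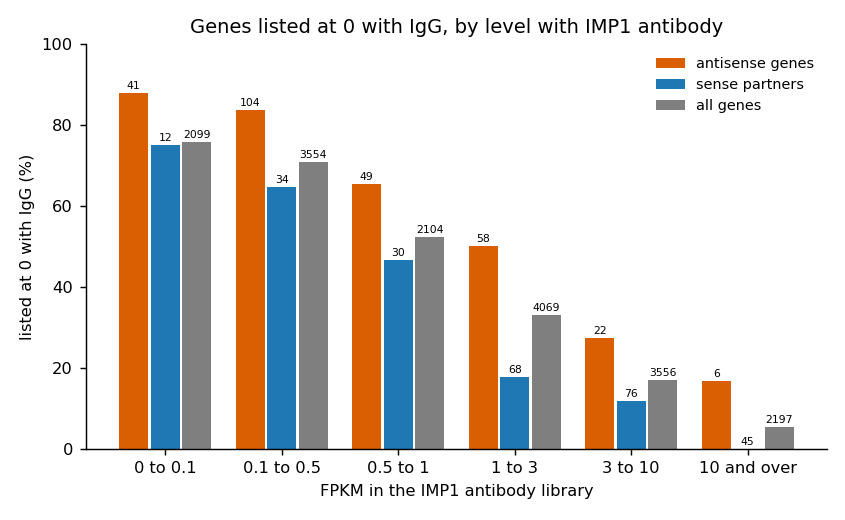
Share of genes listed at 0 with IgG in percent (y axis, from 0), by FPKM with the IMP1 antibody (x axis), for antisense genes, sense partners and all genes, with the number of genes above each bar. The antisense bars stand above those of all genes at every level, from 87.8% against 75.7% in the lowest to 16.7% against 5.37% in the highest.

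The 89 antisense genes with a value over 0 in each library leaned the other way on the deposited scale. There 7 were higher (all genes 17.5%) and 47 lower (all genes 43.8%), with a median log2 ratio of -1.12 against -0.72 for all such genes. Of the 38 LINC lncRNAs above 0 in both, 4 were higher and 23 lower, with a median of -1.34. A level of 1 FPKM or more in each library was met by 46 antisense genes: 2 were higher (all genes 11.5%), 26 lower (all genes 44.0%) and 18 between, with a median of -1.28. Of these 46, 33 had the lower value with IMP1. The splits of the 89 and of the 46 were not recounted after rescaling. AGAP2-AS1, which held the median of the 89 on the deposited scale, was at -0.37 on the median-gene scale and 0.68 on the same-sum scale. The same-sum shift of 1.88 exceeds the fall of both medians, so their sign was not kept on that scale. Rescaling raises all such genes too. The distance of the antisense medians from those of all such genes was not recounted. The 7 higher members were CERS6-AS1, CTBP1-AS2, HOXB-AS1, MAPKAPK5-AS1, PINK1-AS, VPS9D1-AS1 and WT1-AS, of which CTBP1-AS2, HOXB-AS1, PINK1-AS and VPS9D1-AS1 were named after their values were seen. CTBP1-AS2 was at 4.03 FPKM with IMP1 and 0.818 with IgG, VPS9D1-AS1 at 3.17 and 0.811, and HOXB-AS1 at 2.59 and 0.673. PINK1-AS was at 0.286 FPKM with IMP1, and its IgG value, though counted as above 0, was under 0.001 and far below the 1e-05 that was read as 0. The 280 members above 0 with IMP1 likewise include 3 with values under 0.001.

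**Figure D4:**
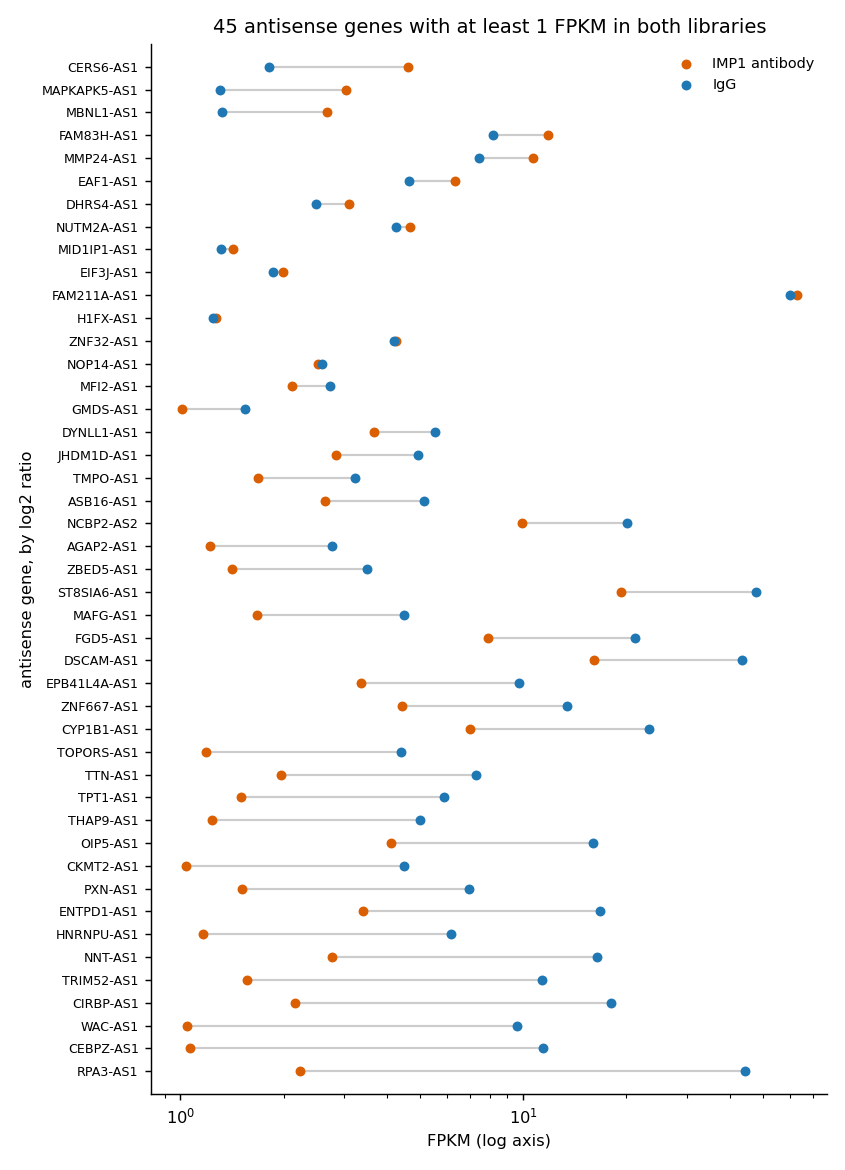
FPKM (x axis, log scale) with the IMP1 antibody and with IgG for 45 of the 46 antisense genes that reached 1 FPKM in each library, 1 row each (y axis), ordered by log2 ratio from CERS6-AS1 at the top to RPA3-AS1 at the bottom. In 32 of the 45 rows the IMP1 point lies left of the IgG point.

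The antisense genes most abundant with IMP1 were, apart from RHPN1-AS1, also abundant with IgG. FAM211A-AS1 (SNHG29) was at 62.8 FPKM with IMP1 and 59.9 with IgG, the highest with IMP1, and was 1.05-fold its IgG level with IMP1. ST8SIA6-AS1 was at 19.3 and 47.6, and DSCAM-AS1, an estrogen receptor-dependent lncRNA of luminal breast cancer, at 16.1 and 43.5, 2.70-fold lower with IMP1. FGD5-AS1 was at 7.92 and 21.2, and CYP1B1-AS1, beside the cytochrome P450 gene CYP1B1, at 7.02 and 23.2. These last 4 were lower with IMP1, but rescaled to the same FPKM sum each was above 0 in log2 ratio, from 0.15 to 0.57. FAM83H-AS1 (now IQANK1) was at 11.8 and 8.17 and MMP24-AS1 at 10.6 and 7.43, both within 2-fold of IgG on the deposited scale. Their log2 ratios of 0.52 and 0.51 became 1.31 and 1.30 on the median-gene scale and 2.39 and 2.38 on the same-sum scale.

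At the IgG end, MACC1-AS1 was at 0 FPKM with IMP1 and 106.7 with IgG, the highest antisense value in either library. RPA3-AS1, now named UMAD1, was at 2.23 and 44.2 FPKM, 19.8-fold lower with IMP1. HOXC-AS2, in the HOXC cluster, was at 0.535 and 23.8, and CIRBP-AS1, beside the cold-inducible RNA-binding protein gene, at 2.16 and 18.1. UNC5B-AS1 and RASAL2-AS1, named after their values were seen, were at 0 with IMP1 and at 18.0 and 17.4 FPKM with IgG. Each was thus far below its IgG level with IMP1 while members such as RHPN1-AS1 showed the reverse.

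The study's own table of lncRNAs held 5 antisense genes, which were picked from these libraries and so are not independent evidence of direction. All 5 had more FPKM with IMP1. RHPN1-AS1 was at 15.3 FPKM with IMP1 and 0 with IgG, and GATA3-AS1 at 6.26 and 0. GATA3-AS1 is transcribed head to head with GATA3, the luminal transcription factor, from the window printed above, and GATA3 is itself among the 11 of 17 luminal markers that were higher. GAS6-AS2 was at 1.64 and 0, CERS6-AS1 at 4.62 and 1.82 (2.54-fold), and PAPPA-AS1 at 0.0973 and 0. PAPPA-AS1, with a log2 ratio of 0.98, fell short of the 2-fold limit. CERS6-AS1 was the only 1 of the 5 measured above 0 in both libraries.

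Of 27 well-described antisense RNAs, 20 were in the table, 8 higher and 8 lower, beside 39.9% and 29.9% of all genes. With a pseudocount of 1 the split was 1 higher, TP73-AS1, and 8 lower, and on the same-sum scale 10 and 3. OIP5-AS1, known as Cyrano, which binds microRNA miR-7 and the RNA-binding protein HuR, was at 4.11 FPKM with IMP1 and 16.0 with IgG. CDKN2B-AS1 (ANRIL), which acts with Polycomb at the INK4 locus, was at 0.165 and 0. BDNF-AS, a repressor of BDNF, was at 0.214 and 1.45, and TTN-AS1 at 1.97 and 7.29. TP73-AS1 was at 1.76 and 0, MCM3AP-AS1 at 0.597 and 0, SBF2-AS1 at 0.329 and 0, and MAPKAPK5-AS1 at 3.04 and 1.30. EIF3J-AS1, at 2.0 and 1.86, differed by 0.098 in log2 ratio on the deposited scale and by 1.92 on the same-sum scale. The locus annotated as HIF1A-AS2, for which the current symbol is HIF1A-AS3, was at 0 and 6.29 FPKM. The group thus held members at 0 in either library.

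Antisense genes beside mesenchymal genes were mixed. ZEB2-AS1, which overlaps the 5′ end of ZEB2, the E-cadherin repressor, was at 0 FPKM with IMP1 and 10.8 with IgG, and ZEB2 at 0 and 21.3. ZEB1-AS1 was at 0.491 and 3.90, and ZEB1 at 0.161 and 0.732. VIM-AS1, named for its partner after its values were seen, was at 0.172 and 0, against 0.463 and 20.1 for VIM, the mesenchymal intermediate filament. All 3 sense genes were lower with IMP1 on the deposited scale with 0.1 FPKM added. They are themselves among the 13 of 15 mesenchymal markers that were lower, and all 15 summed to 11.8 and 258 FPKM. ZEB1, under 1 FPKM in both libraries, is within 2-fold with a pseudocount of 1. The same-sum shift of 1.88 also brings ZEB1 within 2-fold. Whether RNA of other cells had a part in these values was not tested.

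HOX antisense genes, which lie in the clusters that set position along the body axis, numbered 8: 5 were higher, 2 lower and 1 between, against 39.9% and 29.9% of all genes. HOXC-AS3, HOXC13-AS and HOXA-AS2 were named for their group after their values were seen. HOXC-AS3 was at 2.67 FPKM with IMP1 and 0 with IgG, HOXC13-AS at 1.75 and 0, HOXA-AS2 at 0.995 and 0, and HOXA11-AS at 0.179 and 0. HOXC-AS2, from the same cluster as HOXC-AS3, went the other way (above). HOXA11, the partner of HOXA11-AS, was at 0 with IMP1 and 1.31 with IgG. The zinc finger group, taken as antisense genes with ZNF or ZSCAN symbols, numbered 9, 6 higher and 2 lower. Zinc finger genes with other symbols were not counted in it. Both groups are too small, and too near the 52.4% and 24.6% of all antisense genes, to be read as a result about them. Of the 8 sense partners of the zinc finger group 3 were higher and 3 lower. ZNF667-AS1 was at 4.43 and 13.4 FPKM, and ZNF32-AS1 at 4.25 and 4.19, a log2 ratio of 0.019 that became 1.87 on the same-sum scale.

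The sense partners were more abundant than the antisense genes. Their median FPKM was 2.39 with IMP1 and 2.72 with IgG, against 0.385 and 0 for the antisense genes. The sense gene had the higher level in 221 of 282 pairs with IMP1 and in 196 with IgG, and the antisense gene in 59 and 46. The median sense to antisense ratio, in pairs with both above 0, was 4.35 with IMP1 and 3.30 with IgG. In 135 pairs the antisense gene was at 0 with IgG while its partner was not. Of 273 sense genes 91 (33.3%, all genes 39.9%) were higher, 92 (33.7%, all genes 29.9%) lower and 90 between, with a median log2 ratio of -0.052. Their split moved to 122 higher and 56 lower on the median-gene scale (all genes 49.3% and 21.3%) and to 171 and 24 on the same-sum scale (63.7% and 13.0%). With a pseudocount of 1 it was 45 and 77 (all genes 17.4% and 22.4%). Over the 199 sense genes above 0 in both libraries it was 34 and 85 (all genes 17.5% and 43.8%), so the near balance did not hold under these settings.

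Within pairs the antisense and sense ratios often differed. The antisense ratio was at least 2-fold above the sense ratio in 130 pairs and at least 2-fold below it in 81, and 71 pairs lay within 2-fold. A 2-fold difference was thus present in 74.8% of pairs, against 77.6% in 1950 loci of exactly 2 genes with no antisense gene. Both genes passed 2-fold in the same direction in 86 pairs (30.5%, against 31.3% in those loci), 57 of them higher and 29 lower. They passed in opposite directions in 67 (23.8%, against 20.5%), with 48 antisense higher and sense lower and 19 the reverse. All 3 shares are near those of the loci of 2 genes. That background was not matched to the pairs in level or arrangement: 128 of the 282 pairs lay in a shared locus of exactly 2 genes. Across the 282 pairs, which share 2 libraries and often a locus, the Spearman correlation of the log2 ratios was 0.09, and 0.15 across the 1950 loci.

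**Figure D5:**
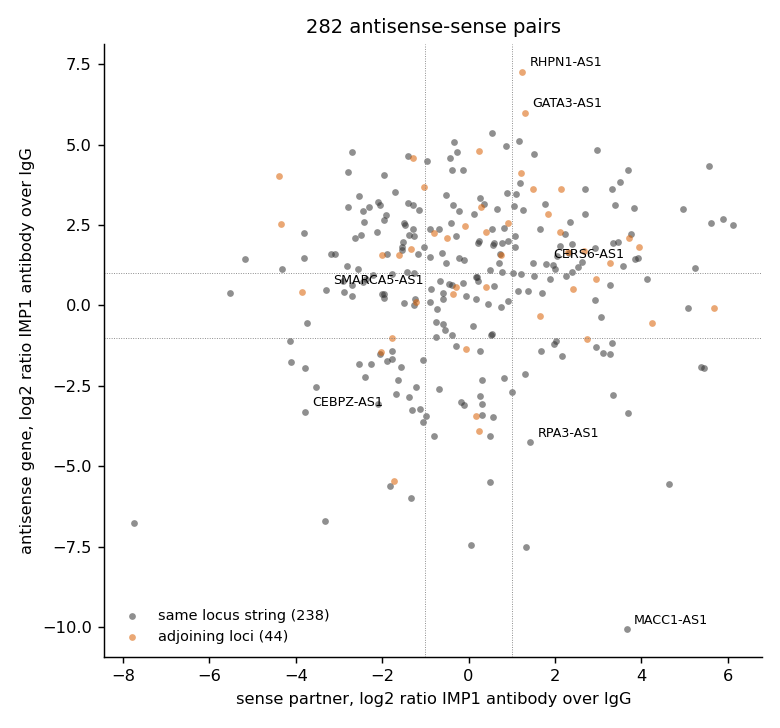
Log2 ratio of the sense partner (x axis) and of the antisense gene (y axis), IMP1 antibody over IgG with 0.1 FPKM added, for the 282 pairs, coloured by whether both genes carry the same locus string (238) or adjoin (44). Dotted lines mark 2-fold in either gene; the points spread over all 4 corners, with 86 pairs in the same direction and 67 in opposite directions.

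When both genes were above 0 in both libraries, which left 64 pairs, the antisense ratio was above in 13, the sense ratio above in 19 and 32 lay within 2-fold. A 2-fold difference was thus present in 50% of them, against 68.1% of the 590 loci of 2 genes with the same limit. In 22 pairs (34.4%, against 27.5%) both genes passed 2-fold in the same direction and in 5 (7.81%, against 10.3%) in opposite directions. The largest excess of antisense over sense was at SMARCA5-AS1, at 0.568 FPKM with IMP1 and 0.377 with IgG. SMARCA5, a chromatin remodelling ATPase, was at 0.977 and 10.5, a log2 difference of 3.78. KTN1-AS1, whose start lies 115 bp from that of KTN1 in the window above, was at 0.865 and 0.630 and KTN1 at 3.62 and 27.4 (3.29). UGDH-AS1 (3.17), DHRS4-AS1 (identifier ENSG00000215256, 3.02) and MBNL1-AS1 (2.73) followed. MBNL1, a splicing regulator, was at 11.8 and 40.3 FPKM, and MBNL1-AS1 at 2.68 and 1.32. In all 5 the sense gene was lower with IMP1, while the antisense gene lay within 2-fold with 0.1 FPKM added; without it MBNL1-AS1 was 2.03-fold higher. On the median-gene scale SMARCA5-AS1 (1.19), KTN1-AS1 (1.13), DHRS4-AS1 (1.08) and MBNL1-AS1 (1.74) passed 2-fold higher. The lower call of some sense genes also depended on the scale. MBNL1, at -1.77 on the deposited scale, comes just within 2-fold under the median-gene shift of 0.79. The same-sum shift of 1.88 brings MBNL1 and DHRS4 (-2.71 on the deposited scale) within 2-fold.

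At the other end RPA3-AS1 differed from RPA3, a subunit of the single-strand DNA-binding complex RPA, by -5.68: RPA3 was at 11.0 FPKM with IMP1 and 4.00 with IgG. EPB41L4A-AS1 was at 3.35 and 9.75 with EPB41L4A at 1.60 and 0.0756 (-4.79). ARAP1-AS1 was at 0.810 and 15.1 with ARAP1 at 1.01 and 0.688 (-4.56). TRAM2-AS1 (-3.78) and SRP14-AS1 (-3.75) were the other 2. SRP14, a protein of the signal recognition particle, was itself lower with IMP1, at 71.1 and 234 FPKM, and SRP14-AS1 lower still, at 0.111 and 9.25. In these 5 pairs the antisense gene was lower with IMP1 on the deposited scale, and the sense gene was lower in SRP14 alone. EPB41L4A-AS1 and TRAM2-AS1 lost the call on the median-gene scale (-0.73 and -0.34) and turned on the same-sum scale (0.33 and 0.66). TRAM2-AS1 also lost it with a pseudocount of 1 (-0.51). RPA3-AS1, ARAP1-AS1 and SRP14-AS1 stayed lower on the same-sum scale, at -2.42, -2.31 and -4.21. Both rescalings, shifts of 0.79 and 1.88, bring SRP14 within 2-fold.

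Several named pairs went in the same direction. CERS6, a ceramide synthase gene, was at 3.39 and 0.913 FPKM beside CERS6-AS1. GATA3 was at 53.7 and 21.6, GAS6, a ligand of the TAM receptor kinases, at 17.2 and 7.42, and RHPN1 at 0.967 and 0.349, so each was higher with IMP1 as its antisense gene was. Both WT1-AS (0.261 and 0.0793) and WT1 (3.32 and 1.58) were just above 2-fold with 0.1 FPKM added, at log2 ratios of 1.01 and 1.03, and WT1-AS was 3.28-fold higher without it. At CEBPZ-AS1 (1.07 and 11.4) and CEBPZ (1.69 and 24.8), and at NNT-AS1 (2.77 and 16.4) and NNT (4.11 and 48.2), a mitochondrial transhydrogenase gene, both were lower. On the same-sum scale NNT-AS1, at a log2 ratio of -0.69, was no longer lower, while CEBPZ-AS1 was, at -1.52.

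Other named pairs were opposed. MACC1 was at 2.51 FPKM with IMP1 and 0.106 with IgG while MACC1-AS1 was at 0 and 106.7. OIP5, a centromere protein gene, was at 4.31 and 0, with OIP5-AS1 lower. TRIM52 was at 0.917 and 0 and TRIM52-AS1 at 1.56 and 11.3. DSCAM was at 0.218 and 0 and ST8SIA6 at 0.676 and 0, each far below its antisense gene in level. GAS5-AS1 was at 0.50 and 0, whereas GAS5, the snoRNA host, was at 53.7 and 289, a difference in the other direction. Genes of all 6 of these pairs carried the same locus string, so the limit on strand applies to them. On the same-sum scale the antisense genes OIP5-AS1 (-0.083), TRIM52-AS1 (-0.97), DSCAM-AS1 (0.44) and ST8SIA6-AS1 (0.57) were no longer lower, so the opposition in those pairs was lost. It was lost at GAS5-AS1 too, through the sense gene. The shift of 1.88 brings GAS5, at a log2 ratio of -2.43 on the deposited scale, within 2-fold. MACC1-AS1 stayed at -10.1 on the same-sum scale. The pseudocount mattered as well. TRIM52, DSCAM, ST8SIA6 and GAS5-AS1 were under 1 FPKM with IMP1 and at 0 with IgG. With a pseudocount of 1 they are within 2-fold (GAS5-AS1 at 0.59), so the opposition in their pairs is lost there too.

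Counts by arrangement of the pair are given beside those of all antisense genes, of which 52.4% were higher, 24.6% lower and 61.8% at 0 with IgG, and of all genes, with 39.9%, 29.9% and 38.7%. In the 44 pairs at adjoining loci 27 antisense genes were higher and 7 lower, with a median log2 ratio of 1.68, and in the 238 pairs with a shared locus 123 were higher and 60 lower, with a median of 1.05. Of the 118 pairs with starts within 1 kb 69 antisense genes were higher and 21 lower, 67.8% were at 0 with IgG and the median was 1.48. With starts over 1 kb apart 36 of 70 were higher and 23 lower, 55.7% were at 0 with IgG and the median was 1.04. Of the 53 members that the annotation describes as head to head, 26 were higher and 12 lower, with a median of 0.87, below the 1.13 of all antisense genes. These groups were not tested against each other, and no difference between them is read from the counts. Chromosome 3 carried 38 antisense genes, 12.3% of the members against 5.47% of all genes.

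Summed over all 309, the antisense genes made up 403.9 FPKM with IMP1 and 806.4 with IgG, or 0.114% and 0.0621% of each library's FPKM sum. At least 1 FPKM was reached by 86 members with IMP1 and 75 with IgG, and at least 10 FPKM by 6 and 21. Over all genes 2197 and 3720 reached 10 FPKM, and the FPKM sums were 353885 and 1298360, so the larger number with IgG was shared by the whole library.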

How the data were processed

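RNA immunoprecipitated from T47D lysate was sequenced as 2 libraries, 1 with an antibody against IMP1 and 1 with IgG. The authors deposited FPKM per gene, with hg19 named in the submitters' processing notes. The aligner, the FPKM software, its annotation and the strand setting are not given in the sources used here. Columns with the authors' fold changes and p-values and their selected gene lists were not used. Depth is unknown. The study's methods give a longer incubation and another RNasin amount than the labels, which were followed.

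Ratios were log2((FPKM + 0.1)/(FPKM + 0.1)), with 2-fold as the limit, no filter and 1e-05 read as 0 (Python 3.11.15, pandas 2.3.3, numpy 2.4.6, matplotlib 3.10.9). With 1 library per group no test was run. On simulated data for 18781 genes, all 200 genes changed 4-fold were recovered. Recovery of genes listed at 0 with IgG, which make up 155 of the 162 higher antisense genes, was not tested. Alternatives were pseudocounts of 0.01 and 1, filters at 0.5 FPKM and above 0 in both, 2 rescalings, a 4-fold limit, locus subsets and detection limits. Genes were named if they were in the study's lncRNA table, among the top 10 in a library, at 1 FPKM or more in both, among the 5 most different pairs at either end of those with both genes above 0 in both libraries, or on a list of 27 well-described antisense RNAs; the exceptions are marked in the text, and 1 gene that met the rule is not reported here. The members and lists were chosen with earlier results of these data known. Starts, sequences and gene classes came from RefSeq (GRCh38.p14), matched by symbol and gene identifier: 188 pairs had both starts and 290 members a class.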

Additional observations from a re-analysis of the deposited data

How the results depend on the processing

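No paired analysis was possible because each condition had 1 library, and no replicate could be left out. Depth is unknown, so it cannot be said which values of 0 reflect too few reads. With a pseudocount of 1, antisense genes were higher in 39 and lower in 48 cases and sense genes higher in 45 and lower in 77, the medians were 0.20 (antisense) and -0.024 (sense), and 4 of the 70 named antisense genes were higher, against 12 with 0.1. With 0.01 the medians were 3.54 and -0.059. With at least 0.5 FPKM in a library, 73 of 167 antisense genes were higher (43.7%, all genes 36.0%). There 63 were lower (37.7%, all genes 37.9%), and the medians were 0.14 and -0.37. The antisense ratio was above in 59 pairs and the sense ratio in 44. With both libraries above 0, the antisense counts were 7 and 47, 34 sense genes were higher and 85 lower, the medians were -1.12, which changes the antisense direction, and -0.62, and the pairs were 13 and 19; fewer genes enter there by construction. Rescaled to the median gene (a shift of 0.79), 56 sense genes were lower, the medians were 1.62 and 0.66, and 20 named members were higher. Rescaled to the same sum (1.88), 46 antisense genes were lower, sense genes were 171 and 24, the medians were 2.55 and 1.66, and 32 named members were higher. Both rescalings turn the sense median. The median of all genes went from 0.40 to 0.96 and 1.87. At 4-fold the counts were 98 (31.7%) and 44 (14.2%) antisense and 60 and 46 sense, beside 26.1% and 17.3% of all genes. Without shared loci they were 18 and 12 sense genes, with a median of 0.30, which changes direction, and 22 and 13 pairs. With shared loci alone the sense median was -0.12. Counting only members at 0.5 FPKM or more where above 0, 68 were above 0 with IMP1 alone and 19 with IgG alone.

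The same-sum scale turned 11 named members from lower to a positive log2 ratio: ZNF667-AS1 (0.28), ST8SIA6-AS1 (0.57), EPB41L4A-AS1 (0.33), FGD5-AS1 (0.45), TRAM2-AS1 (0.66), CYP1B1-AS1 (0.15), DSCAM-AS1 (0.44), ZBED5-AS1 (0.55), AGAP2-AS1 (0.68), MAFG-AS1 (0.45) and NCBP2-AS2 (0.85). Apart from the rescaling itself, the cause was not tested.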
